A study of Homo sapiens with 30 samples.

Results

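The retinoid receptor genes RARA, RARG, RXRA, RXRB and RXRG were followed through the open chromatin of human pluripotent cells on their way to neural tissue. Each gene was taken with 50 kb on either side of its GRCh38 gene body, and every peak of every deposited list that overlapped such a window by at least 1 bp was counted. All 5 genes were matched in the RefSeq gene table. Peaks of the 10 lists that overlapped were merged into regions, and a region counts as open in each list with at least 1 bp of peak in it. The 5 windows held 206 of the 493444 regions on chromosomes 1 to 22, X and Y.

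Retinoic acid receptors (RARs) are nuclear receptors that bind all-trans retinoic acid. They pair with retinoid X receptors (RXRs) and sit on DNA at repeats of a short hexamer, with corepressors when no ligand is bound and with coactivators when it is. RXRs also pair with the vitamin D, thyroid hormone, PPAR and LXR receptors, so their use is wider than the retinoic acid response. In the early embryo retinoic acid patterns the hindbrain along the head-to-tail axis, and HOX genes and the receptor gene RARB are well-known targets. RARA and RXRB are broadly expressed, whereas RXRG is known from muscle, pituitary and parts of the brain.

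All cells were wild-type H1, an established human embryonic stem cell line, and each library was made by OmniATAC-seq from 50000 cells. In this assay the Tn5 transposase places sequencing adapters in accessible DNA. Pluripotent cells (hPSC) were taken on day 0. Definitive ectoderm (DE) was taken on day 1 after 24 h with A8301, Trametinib, C59 and LDN193189. Both day 2 populations came from DE in a medium with A8301, LDN193189 and Thiazovivin. Anterior neural ectoderm (aNE) had C59 at 1 µM in addition, an inhibitor of WNT secretion. Posterior neural ectoderm (pNE) instead had the RAR agonist TTNPB at 50 nM, FGF2 at 20 ng/mL and the tankyrase inhibitor XAV939 at 1 µM. TTNPB therefore came together with FGF2 and XAV939, and their parts cannot be told apart. On day 4 cells of each origin were taken from telencephalon, midbrain or hindbrain medium, which gave aNE_T, aNE_M and aNE_H, and pNE_T, pNE_M and pNE_H. The plating density was 37500 cells/cm2 for both aNE and pNE. For cultures kept beyond day 2 it was 75000 cells/cm2 on the anterior path and 150000 on the posterior path. Density thus moved with origin on day 4, and with day between the day 2 and day 4 lists of each path. The full composition of the day 4 media is not given in the sources used here.

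The labels give 3 biological replicates per group, but there was 1 peak list per group, with positions only. No value below has a replicate error, no test between groups could be made, and read depth is unknown. Differences are between lists. The lists held from 167792 (aNE) to 313095 (pNE_H) peaks, and the long pNE_H list stood apart from the others, which reached at most 247642. A region open in a few cells and one weakly open in all cells cannot be told apart in bulk lists. Labels were set beside the covered bases of marker genes with 50 kb each side. The sum for 4 pluripotency genes (POU5F1, NANOG, DPPA4 and PRDM14) was 29820 in hPSC, 24216 in DE and 16253 to 23696 on day 4, although DPPA4 had 6938 in pNE_H and 6808 in hPSC. The sum for 3 neural genes (SOX1, PAX6 and SOX2) was 26503 in hPSC and 27103 to 35789 on day 4. For 5 genes of other germ layers and non-neural ectoderm (SOX17, FOXA2, TBXT, TFAP2A and GATA3) it was 41281 in hPSC and 32430 to 52247 on day 4, highest in pNE_H. The summed covered bases of 4 hindbrain-side genes (GBX2, HOXB1, HOXB2 and EGR2) were 29737 to 30531 in the aNE-derived lists and 38246 to 48412 in the pNE-derived lists, without overlap, and 36064 in hPSC. Of these genes HOXB1 and HOXB2 were separated by origin, at 7484 to 7859 against 12086 to 15432 and at 7453 to 8342 against 13054 to 17087, while GBX2 and EGR2 overlapped. HOXB1 and HOXB2 lie in the same gene cluster, so peaks shared by their windows count for both genes and more than once in the sum. The sum for 5 forebrain-side genes (OTX2, SIX3, HESX1, LHX2 and RAX) overlapped between the origins, at 36521 to 47587 and 36790 to 46161.

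The start sites of these genes differed in how they were covered by peaks, so the 250 bases before 5 of the starts are printed, from RefSeq promoters of GRCh38.p14, 5′ to 3′ on the gene's strand. Capitals mark bases that lay inside a peak in all 10 lists.
RARA, chr17:40308930-40309179, plus strand: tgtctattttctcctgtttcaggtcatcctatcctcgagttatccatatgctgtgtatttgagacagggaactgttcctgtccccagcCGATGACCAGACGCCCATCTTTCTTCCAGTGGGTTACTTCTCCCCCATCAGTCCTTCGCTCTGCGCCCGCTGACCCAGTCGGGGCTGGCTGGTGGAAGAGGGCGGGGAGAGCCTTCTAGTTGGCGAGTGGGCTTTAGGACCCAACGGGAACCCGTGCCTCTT
RARG, chr12:53232210-53232459, minus strand: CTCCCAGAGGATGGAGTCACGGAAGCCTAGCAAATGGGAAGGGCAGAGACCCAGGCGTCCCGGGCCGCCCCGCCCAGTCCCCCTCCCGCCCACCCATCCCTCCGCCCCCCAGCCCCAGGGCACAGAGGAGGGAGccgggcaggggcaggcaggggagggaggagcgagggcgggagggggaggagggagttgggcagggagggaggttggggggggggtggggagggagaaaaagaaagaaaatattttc
RXRA outermost start, chr9:134326205-134326454, plus strand: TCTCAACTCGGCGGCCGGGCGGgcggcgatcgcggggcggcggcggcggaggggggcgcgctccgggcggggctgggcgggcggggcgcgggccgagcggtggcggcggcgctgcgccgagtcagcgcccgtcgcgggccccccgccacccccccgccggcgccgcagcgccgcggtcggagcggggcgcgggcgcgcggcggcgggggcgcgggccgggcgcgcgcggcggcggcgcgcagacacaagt
RXRA inner start, chr9:134379045-134379294, plus strand: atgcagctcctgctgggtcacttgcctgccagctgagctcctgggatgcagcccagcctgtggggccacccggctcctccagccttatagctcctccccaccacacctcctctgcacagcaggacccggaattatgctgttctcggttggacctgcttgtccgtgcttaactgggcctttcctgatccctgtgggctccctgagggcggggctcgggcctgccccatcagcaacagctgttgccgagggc
RXRG, chr1:165445127-165445376, minus strand: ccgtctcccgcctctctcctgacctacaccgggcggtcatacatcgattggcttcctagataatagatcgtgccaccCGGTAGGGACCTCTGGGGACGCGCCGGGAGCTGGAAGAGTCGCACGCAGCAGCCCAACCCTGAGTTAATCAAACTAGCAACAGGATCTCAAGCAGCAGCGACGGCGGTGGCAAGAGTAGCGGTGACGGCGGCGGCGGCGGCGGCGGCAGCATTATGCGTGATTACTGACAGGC
Capitals made up 162 of the bases before the outermost RARA start, 134 before the RARG start and 173 before the RXRG start. Before the outermost RXRA start they made up 22, at the far end, and 145 of the 250 bases were in no peak of any list. That sequence is 89.2% G or C and holds 59 CpG dinucleotides.

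Of the 9 RefSeq starts of the 5 genes, 6 lay under a peak in all 10 lists. These were the 3 starts of RARA, both of RXRB and the 1 of RXRG. The RARG start lay under a peak in 7 lists, all but hPSC, DE and pNE_T, although the region that holds it had between 1197 and 1707 covered bases in every list. Neither RXRA start lay under a peak in any list. The region chr9:134379034-134379216, which ends before the inner start, was open in DE alone with 183 covered bases. Before that start, 78 of the 250 printed bases were in no peak of any list. Over 22199 starts of 15843 protein-coding genes, 63.9% were under a peak in all 10 lists and 22.0% in none. Among the 757 starts whose window is at least 80% G or C, as the outermost RXRA window is with 84%, 3.57% were in none. The outermost RXRA start was flanked by peaks: the region chr9:134325204-134326309, which ends before it, was open in all 10 lists with 392 (aNE_H) to 1101 (pNE_T) covered bases. The region chr9:134326830-134327374, just inside the gene, was open in 7. Whether reads could be placed in the G and C rich stretch between them was not tested.

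**Figure D1:**
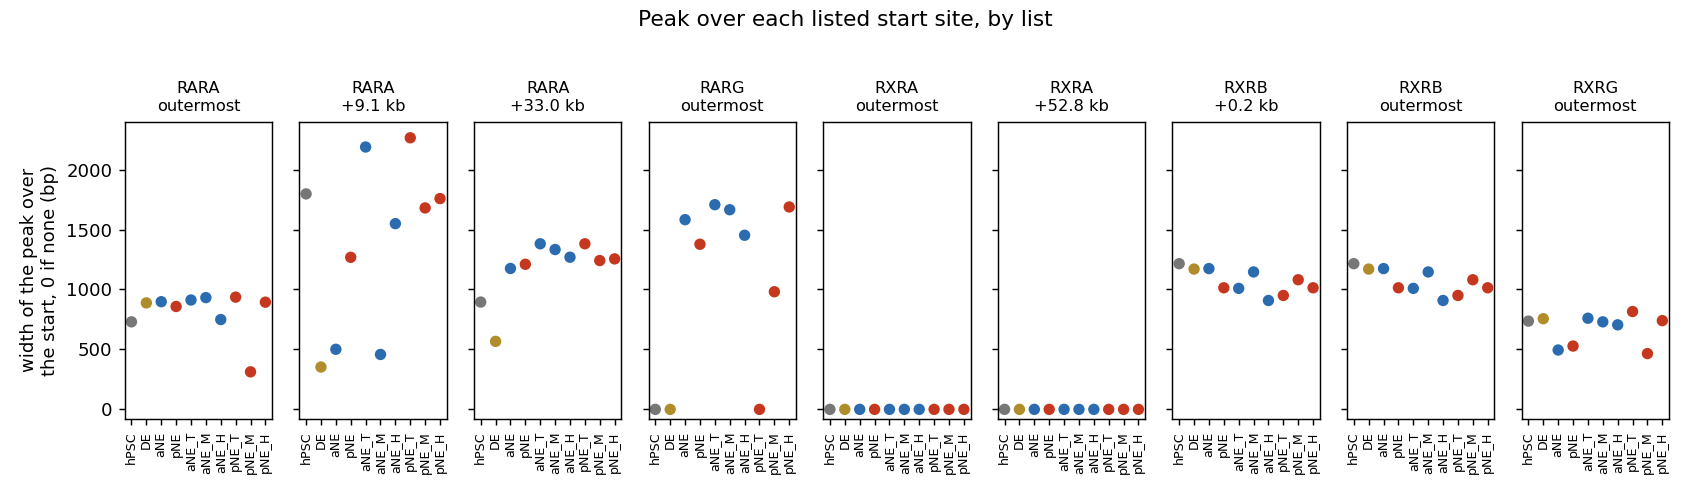
Width in bp of the peak over each RefSeq start, for the 9 starts of the 5 genes, in each of the 10 lists. Both RXRA starts are at 0 in every list, and the RARG start is at 0 in hPSC, DE and pNE_T.

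The same bases were searched on both strands for the hexamer AGGTCA, for its close variant AGTTCA, for the related form GGGTCA and for a last form, GGTTCA, and for pairs of them in the same direction with 1, 2 or 5 bases between (DR1, DR2 and DR5), arrangements that RAR and RXR pairs are known to bind. Each hexamer of a pair also counts as a single match. A hexamer was present before 31.2% of the 22199 starts. A DR1 was present before 20 of them (0.0901%), a DR2 before 7 and a DR5 before 12 (0.0541%). The starts of the 5 genes held no DR1, DR2 or DR5 in this window. Single hexamers were found before the outermost RARA start (2), the RXRG start (1) and the inner RXRA start (1). The paralog RARB, the textbook target of its own family, carries a DR5 at 53 bases before the start at position 25428263 of chromosome 3, printed with its surroundings and the 17 bases of the match in capitals.
RARB, chromosome 3, plus strand: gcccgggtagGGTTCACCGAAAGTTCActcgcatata
That match was under a peak in all 10 lists. The peak over the start was 423 to 885 bp wide in hPSC, DE, aNE and the aNE-derived lists, and 1055 to 1248 bp wide in pNE and the pNE-derived lists, so the ranges did not overlap. At the starts of RARA, RARG, RXRB and RXRG the widths of these sets of lists overlapped. They also overlapped at the RARB start at position 24829321, at 1209 to 1746 bp against 1327 to 1626 bp.

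RARA, the receptor that is most widely expressed among the RARs, lies at chr17:40309180-40357643 on the plus strand. Its window held 37 regions, 15 of them in the gene body, and reaches into WIPF2, CDC6, GJD3 and TOP2A. Covered bases numbered 13723 in hPSC, 12762 in DE, 11288 in aNE and 10612 in pNE. The day 4 values were 13576, 11950 and 10357 in aNE_T, aNE_M and aNE_H, and 10916, 10579 and 12518 in pNE_T, pNE_M and pNE_H. The highest value, in hPSC, was 1.33 times the lowest, in aNE_H, and the ranges of the day 4 origins overlapped. For comparison, 2226 protein-coding genes had the same number of regions within 10%. In covered bases RARA was above their 75th percentile in 9 lists and between the 25th and the 75th in pNE_H.

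RARG, which is known from skin, cartilage and the early embryo, lies at chr12:53210569-53232209 on the minus strand. Its window is the most crowded of the 5, with 6 other protein-coding genes, and held 34 regions, 8 of them in the gene body. Covered bases were 12997 in hPSC, 13010 in DE, 12292 in aNE and 12072 in pNE. The aNE-derived lists had 12240 (T), 12273 (M) and 11665 (H), and the pNE-derived lists 11281 (T), 12712 (M) and 13638 (H). This was the flattest of the 5 profiles, with a ratio of highest to lowest of 1.21. All 10 values of covered bases were above the 75th percentile of 2942 genes with like region numbers. Of its 34 regions, 13 (38.2%, 95% Wilson interval 23.9 to 55.0) were open in all lists, against 23.2% at the like genes. Of these 13, 4 lay in the gene body, 5 downstream and 4 upstream, and like genes were not matched for neighbouring genes. The downstream region chr12:53159126-53161056 crosses the edge of the window, and its peaks in aNE and pNE_T lay outside the window. The intervals here and below cover the counting of regions only.

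RXRA, the RXR that most RAR pairs are thought to use in the embryo, lies at chr9:134326455-134440585 on the plus strand. It is the longest of the 5 genes at 114 kb and has no other protein-coding gene in its window, which held 73 regions, 39 of them in the gene body. Covered bases were 11067 in hPSC, 15364 in DE, 11846 in aNE and 12760 in pNE. They were 14949, 14959 and 12823 in aNE_T, aNE_M and aNE_H, and 13433, 11948 and 18902 in pNE_T, pNE_M and pNE_H. The gene was thus lowest in hPSC and highest in pNE_H, the longest list, by 1.71 times. In covered bases it lay between the 25th and 75th percentiles of its 474 like genes in all 10 lists, pNE_H included, where their median was 18447.

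RXRB lies at chr6:33193588-33200853 on the minus strand, within the extended MHC region, and is short at 7.27 kb. Its window held 22 regions, 3 of them in the gene body, and takes in COL11A2, SLC39A7, HSD17B8, RING1 and VPS52. Covered bases were 7972 in hPSC and 7981 in DE. They were 6248 in aNE, 6324 in pNE, 5677, 5488 and 4837 in the aNE-derived lists T, M and H, and 5167, 4760 and 6423 in the pNE-derived lists. Both early lists were above all 8 later lists. Median covered bases at like genes were 6436.5 in hPSC and 6634 in DE, and 5405.5 (pNE_M) to 7385.5 (pNE_H) in the later lists. Of the 22 regions, 9 (40.9%, interval 23.3 to 61.3) were open in hPSC or DE and in no later list. Over the 5 genes this count was 29 of 206 (14.1%), against 12.9% of all regions and 15.1% at the genes like RXRB. Of the 9 in the RXRB window, only chr6:33193632-33193787 lay in the gene body, with 156 bases in hPSC. The others lay in the flanks, some of them inside COL11A2 or RING1. RXRB is in a part of chromosome 6 for which the lists also hold alternate sequences: 7 such scaffolds carried 2357 peaks in hPSC, 2464 in DE and 1303 (aNE_H) to 1633 (pNE_H) in the later lists. How peaks were shared between chromosome 6 and these scaffolds was not tested.

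RXRG lies at chr1:165400922-165445126 on the minus strand, next to LMX1A, a gene of roof plate and midbrain development. Its window held 40 regions, 10 of them in the gene body. Covered bases were 9609 in hPSC, 9621 in DE, 8590 in aNE and 8984 in pNE, then 10219, 8406 and 8484 in aNE_T, aNE_M and aNE_H, and 9276, 8324 and 12972 in pNE_T, pNE_M and pNE_H. The pNE_H value was the highest and the other 9 lay within 8324 to 10219. In covered bases RXRG was between the 25th and 75th percentiles of 2143 like genes in all lists. In number of peaks the order against like genes was different. RXRG was above the 75th percentile in 4 lists (aNE, pNE, aNE_T and pNE_H), RARA in 4, RARG in 5, RXRA in 2 and RXRB in 1, and RXRB was below the 25th in 1, pNE_H.

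**Figure D2:**
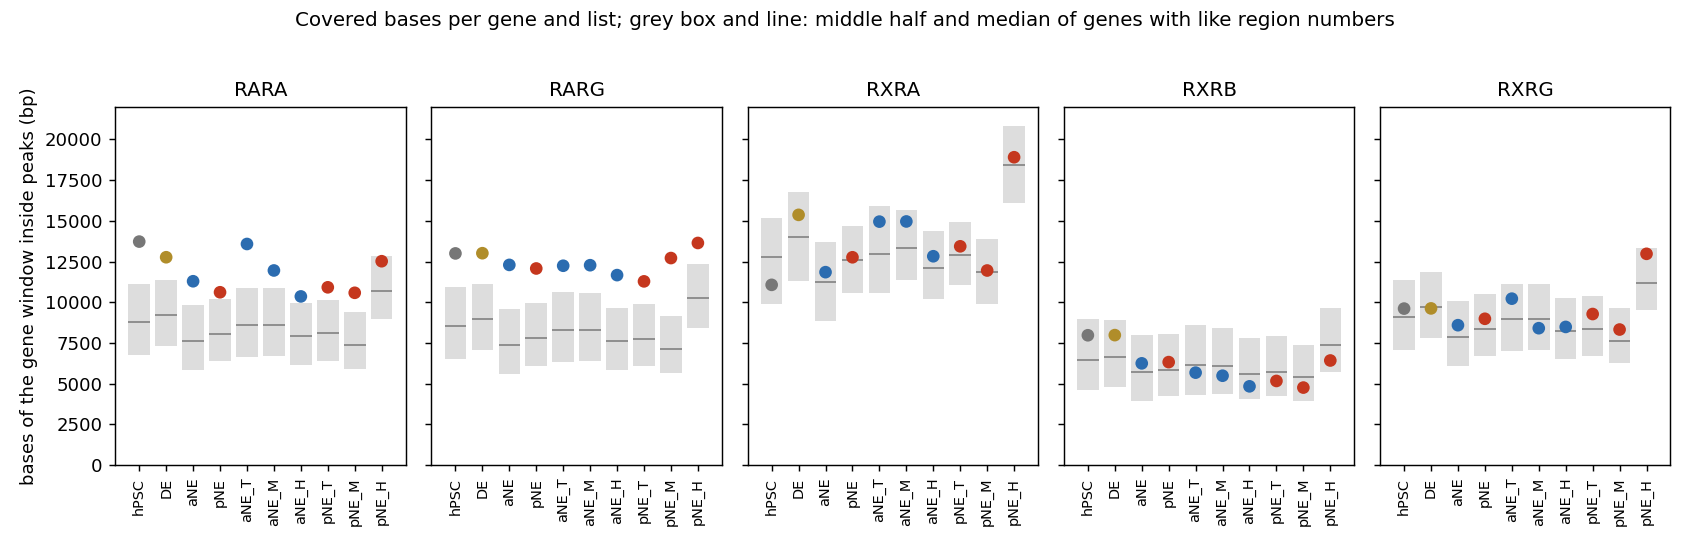
Covered bases in the window of each receptor gene in each list, with the median and the range from the 25th to the 75th percentile of genes with like region numbers. RARG is above that range in all 10 lists, RARA in 9, and RXRA, RXRB and RXRG are inside it in all 10.

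Summed over the 5 genes there were 124 peaks in hPSC, 141 in DE, 99 in aNE and 107 in pNE. The day 4 lists had 113, 114 and 95 in aNE_T, aNE_M and aNE_H, and 95, 109 and 133 in pNE_T, pNE_M and pNE_H. Per 100000 peaks of the list the genes had 59.002 in aNE and 51.7 in pNE, and the lowest value was 42.5 in pNE_H, the list with most peaks. The raw number and the number per list therefore put pNE_H at opposite ends among the day 4 lists.

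**Figure D3:**
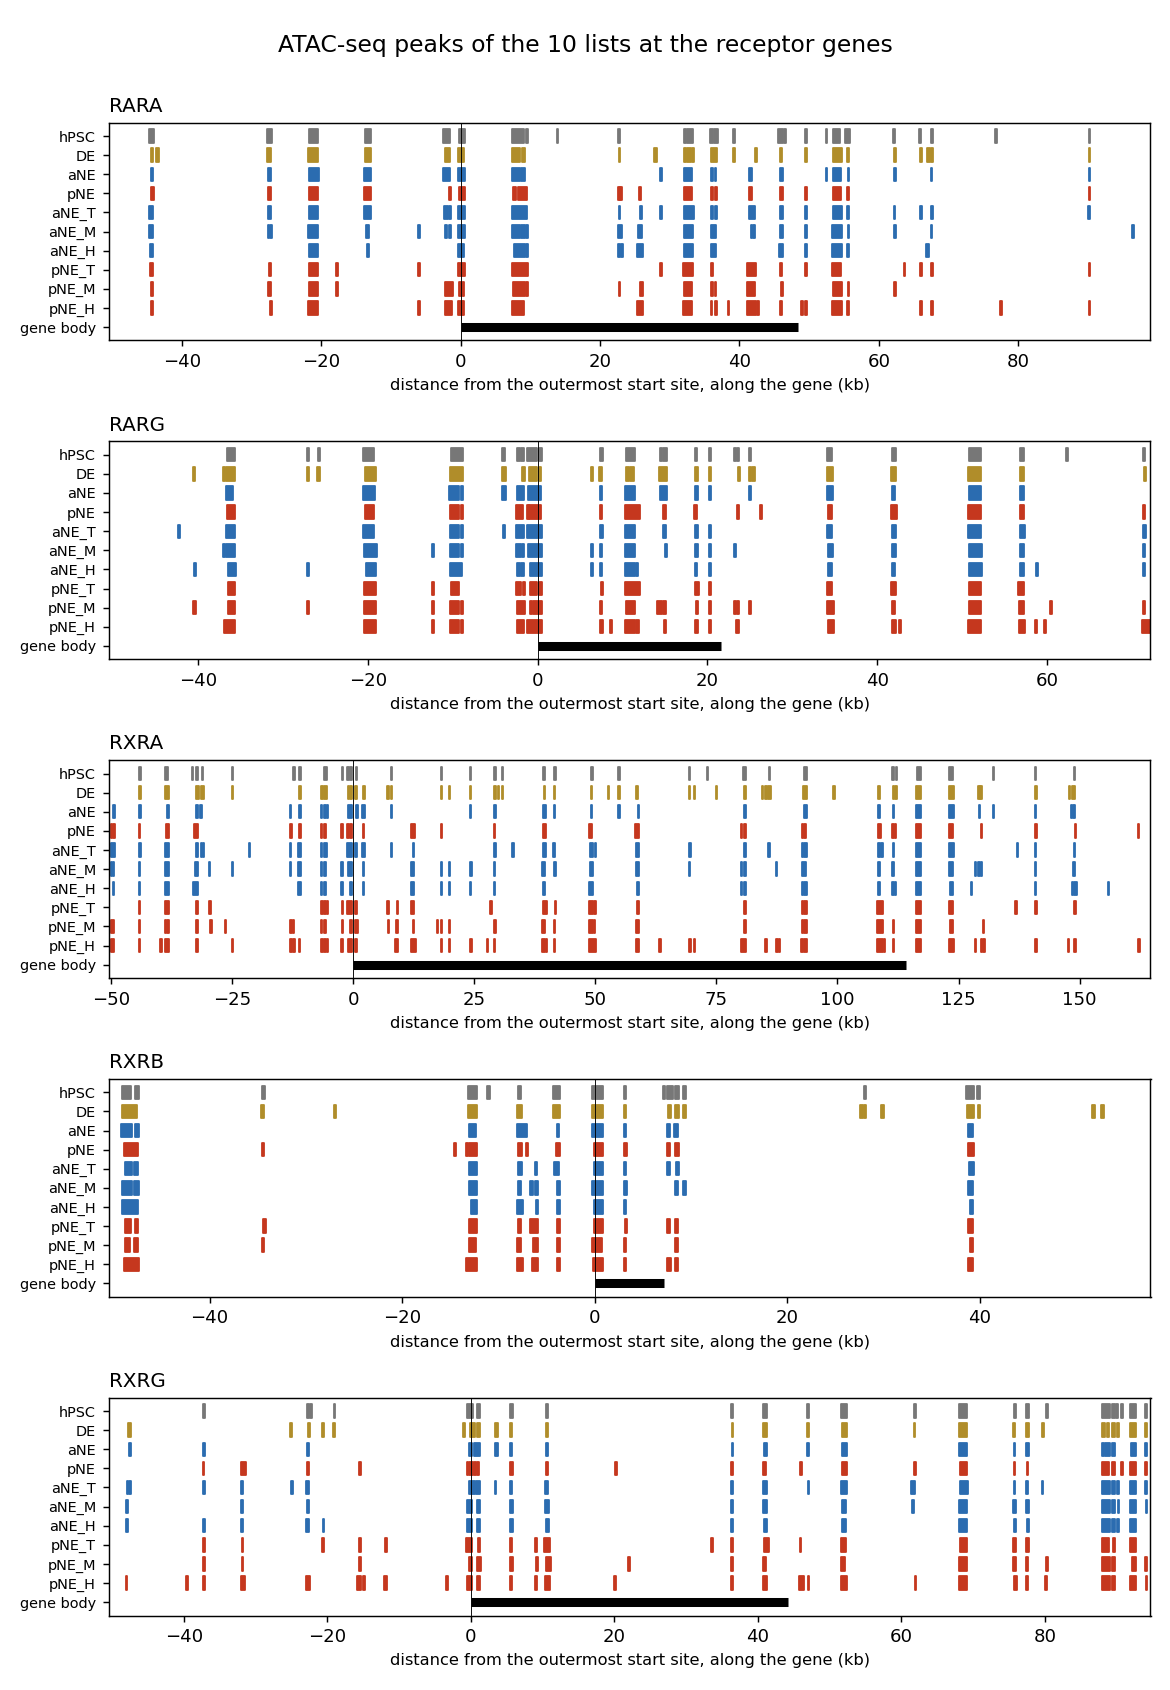
Peaks at the 5 genes in the 10 lists, by distance in kb from the outermost start along the gene (grey hPSC, ochre DE, blue aNE and its derivatives, red pNE and its derivatives, black the gene body). Bars are drawn at least 0.25 kb wide. Peaks at the starts of RARA, RXRB and RXRG run through all lists, and many others appear in some lists only.

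Regions were split by whether they hold a RefSeq start of any gene. Of 20 that do, 16 (80%) were open in all 10 lists, beside 81.8% over all regions that hold a start. In the RXRA window 0 of 2 were, against 11 of its 71 regions without a start. These 2 overlap LINC02247 and LOC105376311, and neither holds an RXRA start. Of the 186 without a start, 35 (18.8%) were open in all, against 14.3% over all such regions. Together 51 of 206 regions (24.8%, interval 19.4 to 31.1) were open in all 10 lists, against 16.5% of all regions and 21.4% at like genes. At the other extreme, 56 (27.2%) were open in 1 list only, against 33.5% of all regions, and 16 of those 56 (28.6%) were in pNE_H and 14 (25%) in DE. Over all such regions the shares were 31.6% in pNE_H and 16.3% in DE.

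The design sets anterior beside posterior neural ectoderm on day 2. In the windows of the 5 genes, 19 of 206 regions (9.22%, interval 5.98 to 14.0) had a peak in pNE but none in aNE, and for 19 it was the reverse. Over all regions the shares were 12.7% and 5.54%, and at like genes 11.4% and 6.32%. The pNE share of the receptors was thus below the background and the aNE share above it, with the pNE background and both like-gene shares inside the interval and the aNE background of 5.54% just under its lower end. By gene, the pNE-only and aNE-only counts were 3 and 4 at RARA, 2 and 3 at RARG, 6 and 9 at RXRA, 2 and 0 at RXRB and 6 and 3 at RXRG. The count of 0 of 22 regions at RXRB allows a share of up to 13.6% by the rule of 3 counts, and the Wilson upper limit is 14.9%. Covered bases in pNE were 0.940 times those in aNE at RARA, 0.982 at RARG, 1.08 at RXRA, 1.01 at RXRB and 1.05 at RXRG, while RARB was at 1.27. The whole pNE list covered 86.2 Mb and the aNE list 75.5 Mb, a ratio of 1.14, which is above the ratio of each of the 5 genes. The whole-list ratio is not matched for region numbers. Median covered bases at like genes in aNE and pNE were 7618 and 8043.5 for RARA and 7380.5 and 7800 for RARG. They were 11253 and 12606 for RXRA, 5716.5 and 5828 for RXRB, and 7875 and 8372 for RXRG. In peaks per 100000 peaks of the list the ratios were 0.811 at RARA and at RXRA, 0.859 at RARG, 1.05 at RXRB and 0.974 at RXRG, so RXRA and RXRG lay on the other side of 1 by this measure. The balance of 19 and 19 also moved with the choice of peaks: the widest 167792 peaks of each list gave 11 pNE-only (7.19%) and 22 aNE-only (14.4%) of 153 regions, and the widest 50% gave 13 (11.5%) and 7 (6.19%) of 113. The setting of 167792 peaks keeps the whole aNE list and removes peaks from pNE. Shares over all regions under these 2 settings are not given, so the shifts cannot be read as particular to the receptors.

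**Figure D4:**
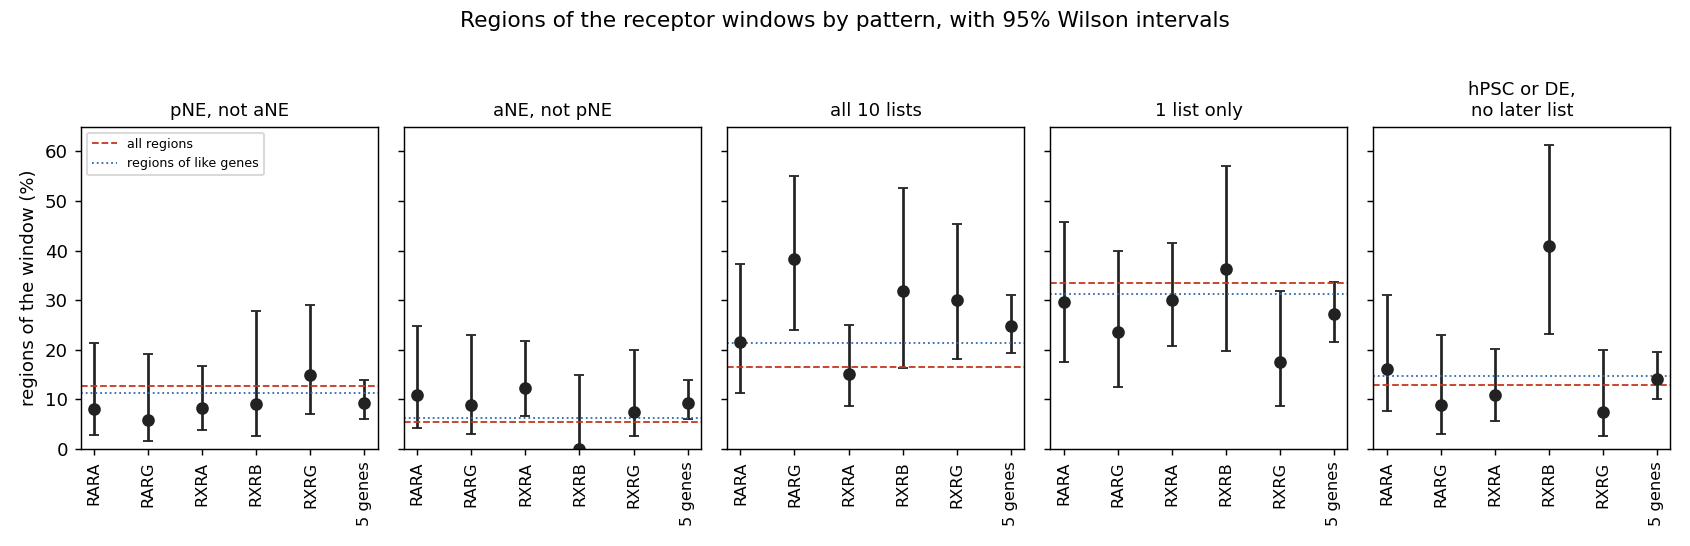
Share in percent of the regions of each gene, and of the 5 together, with a peak in pNE but none in aNE, and the reverse, with 95% Wilson intervals and with the share over all regions and at like genes as lines. Both shares are 9.22% for the 5 genes together.

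Among the pNE-only regions, the largest in bases was in RXRA. The region chr9:134338406-134339345, 12.4 kb inside the gene, had no peak in hPSC, DE or aNE and 854 covered bases in pNE. By day 4 it was open in all 6 lists, with 150, 592 and 629 bases in aNE_T, aNE_M and aNE_H and 482, 126 and 921 in pNE_T, pNE_M and pNE_H. It thus had peaks in both origins by day 4, from values of 0 and 854 on day 2. RXRG had a region of the same kind at chr1:165476451-165477159, 31.7 kb before the start within LRRC52-AS1. It had 651 bases in pNE, 139 to 265 in the aNE-derived lists and 184, 216 and 550 in the pNE-derived lists, and none in the 3 others.

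RARA had a comparable region at chr17:40334519-40335382, 25.8 kb inside the gene. It was closed in hPSC, DE and aNE and had 305 bases in pNE. Its values by day 4 were 332, 506 and 864 in aNE_T, aNE_M and aNE_H, and 0, 438 and 807 in pNE_T, pNE_M and pNE_H. Among these lists it was widest in the hindbrain medium for both origins. Another RARA region, chr17:40331767-40332398, was open in pNE with 321 bases and not in aNE, but it was also open in hPSC and DE, and on day 4 had 229 to 514 bases in the aNE-derived lists and 128 in pNE_M alone of the pNE-derived lists.

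The remaining pNE-only regions were narrower in pNE, at 258 bases or fewer. At RARA there was 1 more, chr17:40358574-40358722, missing only in aNE and pNE_M. At RARG they were chr12:53205845-53206000, open in no other list, and chr12:53208564-53208801, both beyond the gene's end. RXRB had chr6:33215200-33215457, open in no other list, and chr6:33235141-33235499. At RXRA they were chr9:134324015-134324305, chr9:134344507-134344864, chr9:134438362-134438685, chr9:134455958-134456297 and chr9:134488457-134488580, the last open in pNE alone. RXRG had chr1:165354271-165354519, chr1:165383155-165383818, chr1:165398744-165399345, chr1:165424840-165425167 and chr1:165460409-165460969. The region at 165424840 was open in pNE and pNE_H only, with 237 and 315 bases.

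The aNE-only regions were also open in hPSC or DE, except chr17:40337773-40337944 at RARA and chr9:134474594-134474773 at RXRA. At RXRG the region chr1:165441290-165441824, 3.57 kb inside the gene, had 475 bases in DE, 485 in aNE and 261 in aNE_T, and was closed in the 7 other lists. The RXRG region chr1:165492448-165492844 was open in the same 3 lists with 397, 302 and 159 bases. At RARG the region chr12:53235950-53236366, 3.95 kb before the start, had 349 in hPSC, 412 in DE, 393 in aNE and 197 in aNE_T, and no peak in any pNE-derived list. Of the 3 day 4 media, only telencephalon medium on the anterior path had a peak at these 3 regions.

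RXRA had 9 aNE-only regions. They were chr9:134294942-134295629, chr9:134326830-134327374, chr9:134334211-134334442, chr9:134350486-134350896, chr9:134367805-134368348, chr9:134381214-134381429, chr9:134455552-134455788, chr9:134458507-134458810 and chr9:134474594-134474773. The region next to the outermost start, at 134326830, was closed in pNE yet had 497, 444 and 424 bases in pNE_T, pNE_M and pNE_H. RARA had chr17:40337773-40337944, chr17:40361532-40361779, chr17:40371277-40371571 and chr17:40376599-40376866, each at most 238 bases in aNE. RARG also had chr12:53207071-53207320 and chr12:53211864-53212047, the second open in every list but pNE, and RXRG also had chr1:165397980-165398259.

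Along the path from day 0, 35 of the 206 regions (17.0%) were gained from hPSC to DE and 17 (8.25%) were lost, against 15.1% and 8.83% of all regions. From DE to aNE 7 were gained and 47 lost (22.8%), against 3.4% and 18.3%. From DE to pNE 14 were gained (6.80%) and 54 lost (26.2%, interval 20.7 to 32.6), against 9.9% and 17.7%. For the losses to pNE the whole interval lay above the share over all regions, and for the gains to pNE that share lay inside the interval (4.09 to 11.1). All shares of gains and losses, here and below, are of all regions. A loss needs a region that was open before, so these shares also depend on how many were open at the earlier stage. They were not adjusted for that, and no share at like genes is given for these steps.

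From day 2 to day 4 the 5 genes gained 18 regions and lost 7 from aNE to aNE_T, against 10.9% and 4.88% of all regions (8.74% and 3.40% here). They gained 25 and lost 16 to aNE_M (15.6% and 5.88% overall), and gained 20 and lost 26 to aNE_H (14.8% and 7.92% overall). Loss to aNE_H was 12.6% of regions (interval 8.76 to 17.9), the one step of these 3 in which losses outnumbered gains at the receptors. On the posterior path they gained 20 and lost 24 to pNE_T (13.7% and 11.6% overall), gained 23 and lost 18 to pNE_M (12.9% and 11% overall), and gained 42 and lost 9 to pNE_H (27.3% and 5.53% overall). The 42 gained to pNE_H were 20.4% of regions (interval 15.5 to 26.4), below the share over all regions.

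Origin on day 4 can be compared within each medium. In telencephalon medium 16 regions were open in pNE_T and not in aNE_T and 31 the other way (14.2% and 10.9% of all regions). The 31 were 15.0% of regions (interval 10.8 to 20.6). In midbrain medium the counts were 19 and 23 (12.3% and 13% overall), and in hindbrain medium 51 and 12 (28.5% and 6.38% overall). The 51 were 24.8% of regions, and the excess in pNE_H was present over all regions as well. Between media of 1 origin, 13 regions were open in aNE_H and not aNE_T and 30 the reverse (11.6% and 10.8% overall). The same step on the posterior path gained 47 and lost 10 (26.7% and 7.07% overall).

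Only 3 of the 206 regions (1.46%) were open in all 3 pNE-derived lists and in none of the aNE-derived, and 3 were open the other way. The shares over all regions were 2.33% and 0.633%. The 3 posterior regions were at RXRA and RXRG. At RXRA it was chr9:134335165-134335791, 9.02 kb inside the gene, with 245, 359 and 627 bases in pNE_T, pNE_M and pNE_H and no peak in any of the 7 other lists. At RXRG chr1:165435846-165436221, 9.09 kb inside the gene, had 376, 146 and 277 bases and likewise no other peak. The third, chr1:165460409-165460969, 15.6 kb before RXRG, had 148 bases already in pNE and 202, 218 and 561 on day 4.

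The 3 anterior regions were at RARA, RXRA and RXRG. The RARA region chr17:40295335-40296341, 13.3 kb before the start and inside CDC6, a DNA replication licensing gene, had 889 to 972 bases in hPSC, DE, aNE and pNE. It had 916, 512 and 311 in aNE_T, aNE_M and aNE_H and no peak in the pNE-derived lists, so it closed on the posterior path after day 2. The RXRA region chr9:134328354-134328905, 2.17 kb inside the gene, was closed in hPSC and had 421 bases in DE, 552 in aNE and 213 in pNE, then 460, 353 and 324 in the aNE-derived lists and none in the pNE-derived. At RXRG chr1:165354880-165355183, inside LMX1A, had 122 to 153 bases in the aNE-derived lists and was open in hPSC and DE but in neither day 2 list.

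A wider comparison, chosen after the values were seen, took regions whose covered bases did not overlap between the origins. In 11 regions (5.34%) every pNE-derived list had more bases than every aNE-derived list, against 4.97% of all regions. In 13 regions (6.31%, interval 3.72 to 10.5) it was the reverse, against 3.01%. At like genes the shares were 4.27% and 3.55%. No minimum gap was required. The RARG region chr12:53179917-53181514, of the second kind, had 1504 to 1546 bases in the aNE-derived lists and 1438 to 1490 in the pNE-derived lists. Several of the first kind were already open on day 2 with like values in aNE and pNE. The RXRA region chr9:134434611-134435912, 109 kb inside the gene, had 423 bases in aNE and 482 in pNE. Its day 4 values were 690, 458 and 173 bases in the aNE-derived lists and 1224, 1185 and 1288 in the pNE-derived lists. The RARA region chr17:40350200-40351656, 41.7 kb inside the gene, had 450 in aNE and 462 in pNE, then 924, 457 and 0 against 1402, 1086 and 1290. At both, the anterior values were highest in telencephalon medium and lowest in hindbrain medium, an order the posterior values did not follow.

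**Figure D5:**
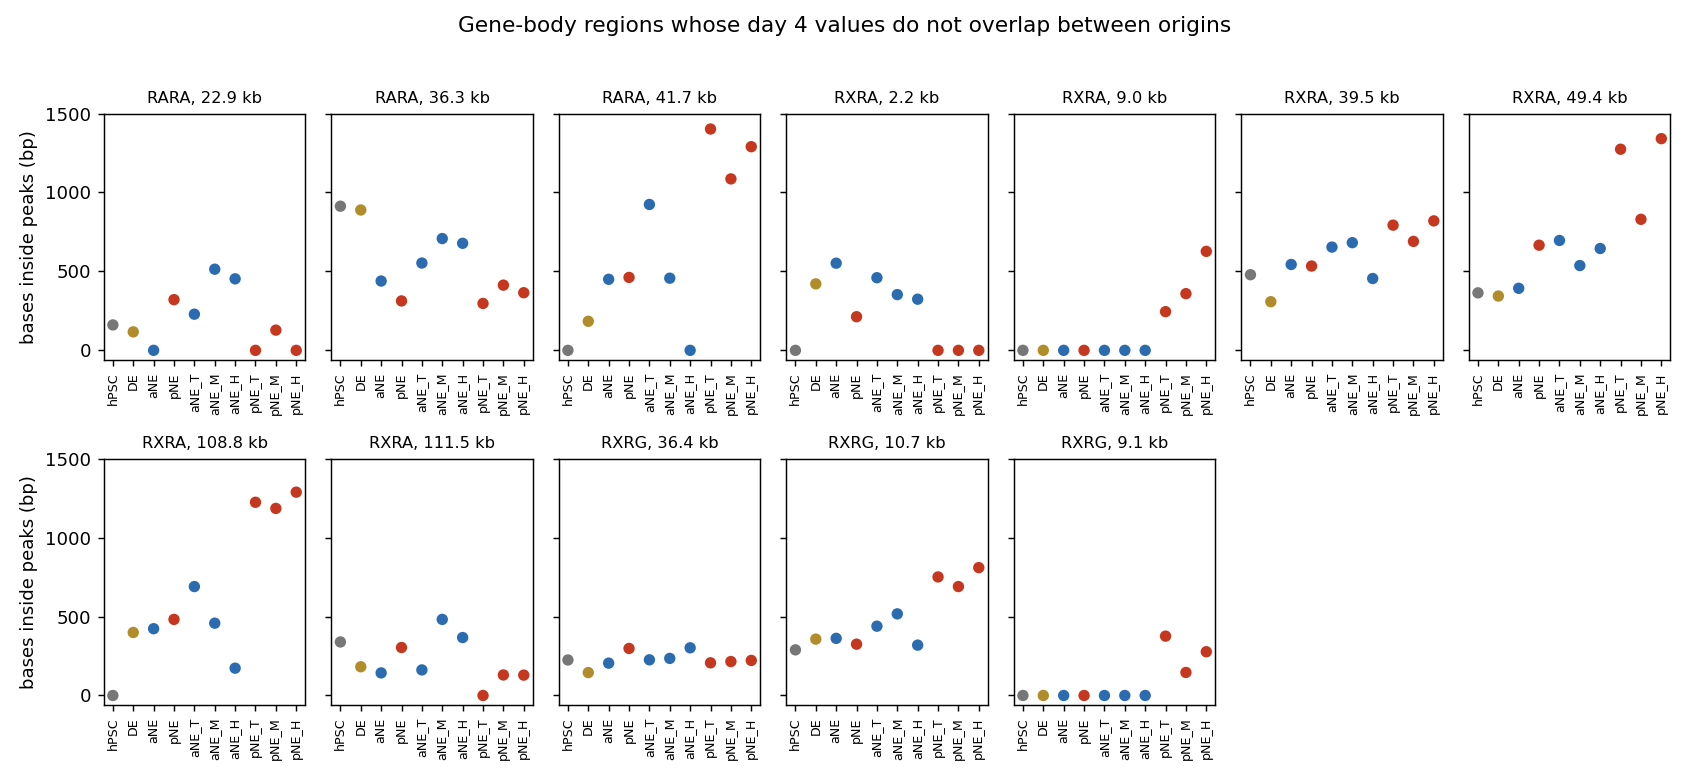
Covered bases in each list for the 12 regions inside the gene bodies whose day 4 values did not overlap between origins. The RXRA region 109 kb inside the gene reaches 1185 to 1288 bases in the pNE-derived lists and 173 to 690 in the aNE-derived lists.

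RXRB had 1 region that appeared on day 4 only. The region chr6:33206718-33207554, 6.28 kb before the start and inside HSD17B8, had no peak in hPSC, DE, aNE or pNE. It had 211, 351 and 164 bases in aNE_T, aNE_M and aNE_H and 802, 504 and 557 in pNE_T, pNE_M and pNE_H. Together with the RXRA and RXRG regions at 12.4 kb and 31.7 kb, 3 of 206 regions were open in all 6 day 4 lists and in neither hPSC nor DE (1.46%), against 1.1% of all regions.

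The wider retinoid pathway was taken from a list of 19 genes: the binding proteins CRABP1, CRABP2 and RBP4, the uptake receptor STRA6, the corepressor NCOR1, the coactivators NCOA1, NCOA2 and NCOA3, and 11 other partners of RXR. All were matched. Peaks per 100000 peaks of the list differed at least 1.5-fold between pNE and aNE at 2 of the 19, both lower in pNE, and 0 were higher. Over 19399 genes tested, 7.39% were lower and 3.95% higher. The corepressor NCOR1 had 12 peaks in aNE and 8 in pNE (ratio 0.541), and NR1H2, which encodes the oxysterol receptor LXR beta, had 15 and 12 (ratio 0.649). The median ratio of the list was 0.901, beside 0.907 over all genes, and the 5 receptors had ratios of 0.811 to 1.05 with a median of 0.859.

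The genes whose covered bases over the 10 lists were most like those of each receptor, among genes with like region numbers, are given by Pearson r over 10 lists as a description. The lists share their peak calling and their length differences. For RARA they were ALOX12B (0.950), ENTREP1 (0.943) and ISOC2 (0.935). For RARG they were RASL12 (0.945), MLYCD (0.933) and MARS1 (0.932). For RXRA they were PCSK2 (0.957), SHB (0.949) and COL27A1 (0.942). For RXRG they were VANGL1 (0.972), RAB33A (0.967) and ZNF143 (0.965). For RXRB they were HSD17B8 and RING1 (both 0.998) and SLC39A7 (0.996), whose windows overlap its own and hold largely the same peaks.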

How the data were processed

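The deposited values are peak start and end positions, 1 list per group and 3 columns per list, with no score, p-value or header. The authors made them from 3 replicates per group. The submitters' processing notes name FastQC, Bowtie2, MACS2, bedtools, featureCounts, edgeR, deepTools and hg38, without versions or roles. The calling threshold and the way replicates were combined are not given in the sources used here, and either would move every number of peaks. Lists were matched to groups by the population name in common. Read depth is unknown, and Wilson intervals (95%) cover the counting of regions only.

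Peaks were merged over the 10 lists at 1 bp of overlap, leaving out scaffolds. Gene windows came from the RefSeq table (GRCh38.p14), which gives no exons, so introns, exons and UTRs are not distinguished. Genes with like region numbers had the same number within 10%. The members and lists were chosen with earlier results of these data known, and 3 genes of the marker and pathway lists are not reported here. Named regions are those open in 1 only of aNE and pNE, or in all day 4 lists of 1 origin and none of the other. Regions with separated day 4 values, the start sites and the hexamer search were chosen after the values were seen. Alternatives were other windows, peak midpoints, at least 50% of a region covered, and the widest peaks only. The code was tested on simulated data: the total error over 200 windows in 4 lists was 0. Python 3.11.15, numpy 2.4.6, pandas 2.3.3, statsmodels 0.14.6 and matplotlib 3.10.9 were used.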

Additional observations from a re-analysis of the deposited data

Results flagged for a closer look

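Peaks on 7 alternate scaffolds of chromosome 6, which were left out of every comparison, numbered from 1303 in aNE_H to 2464 in DE. They were singled out because they are signal outside the sequences analysed, and RXRB lies in the part of chromosome 6 that has such alternates.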

How the results depend on the processing

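Of 52 values recomputed under 7 alternatives, 42 stayed within their interval or within 1.5 times the reported value and 10 moved. Taking gene bodies only gave 38 peaks in aNE and 40 in pNE, 10 kb each side gave 59 and 65, and 100 kb each side gave 161 in pNE. These follow from the size of the window. With the widest 50% of each list there were 57 peaks in aNE and 61 in pNE, and 31.9% of regions were open in all lists. Requiring 50% of a region to be covered gave 12.6% open in all lists. The equal pNE-only and aNE-only counts turned both ways: the shares were 7.19% and 14.4% with the widest 167792 peaks of each list, and 11.5% and 6.19% with the widest 50%. At 167792 peaks the aNE list stays whole and pNE is trimmed, which by itself favours aNE-only regions. Shares over all regions under these settings are not given, and the cause of the shifts was not tested. The ratio of pNE to aNE bases at the 5 genes, 1.01 as reported, crossed 1 without moving by 1.5 times: it was 0.989 with 10 kb each side and 0.955 with the widest 167792 peaks. Single regions were less stable than shares: of the 19 pNE-only regions, 14, 11 and 3 kept that pattern with 50% covered, the widest 167792 peaks and the widest 50%, and of the 19 aNE-only regions 16, 19 and 2 did. Of the 3 pNE-derived regions 0, 2 and 0 kept it, and of the 3 aNE-derived 1, 2 and 2. The aNE list has 167792 peaks, so that setting trims pNE and leaves aNE whole. It could not remove an aNE-only region, so 19 of 19 was fixed in advance and does not measure stability. No paired analysis was possible because each group has 1 list and the lists carry no replicate numbers. For the same reason no replicate could be left out.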
